A study of Mus musculus with 4 samples.

Results

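The 10 genes followed here belong to the acute phase response and to the interleukin-6 (IL-6) pathway that drives it. They are the acute phase proteins Lcn2, Saa3, Orm1 and Lbp, the cytokine Il6, the signalling receptor Il6st, the transcription factor Stat3 and its inhibitor Socs3, and the interleukin-1 (IL-1) receptor Il1r1 with its antagonist Il1rn. They were taken by name from the gene annotation of the array, on which 12 of 55675 probes and 10 of 34844 gene names belong to them. Of these, 9 genes and 11 probes were well above background on at least 1 array, and the single Il1rn probe was not on any.

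RNA came from Sca-1+ cardiac mesenchymal progenitors (CMPs) of the adult C57BL/6 mouse heart. The control CMPs were untreated, and the labels used here give them no day. The OSKM-CMPs had been exposed to Oct4, Sox2, Klf4 and c-Myc and were collected at day 4, day 6 and day 8. According to the methods of the study, the factors were carried by Sendai virus vectors. Each of the 4 conditions was measured on 1 single-colour array, so no difference below has a replicate or a test. Errors given as ± are 1 SD from the error model of the scanner software and cover the measurement on the array, not cultures, RNA preparations or mice. Virus infection, the 4 factors, the culture medium and time in culture cannot be told apart in this design. The sources used here do not say how many mice gave the cells of an array.

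The acute phase response is best known from the liver, where IL-6 released at a site of injury raises the secretion of serum amyloid A, orosomucoid, haptoglobin and related proteins. IL-6 binds its own receptor and then gp130, the product of Il6st, which is shared by all cytokines of the family. Janus kinases on gp130 phosphorylate STAT3, which enters the nucleus and switches on target genes, among them Socs3, whose product blocks gp130 and closes the loop. IL-1 signals through IL1R1 to NF-kB, a strong activator of Il6, and the factors C/EBP beta and delta join STAT3 and NF-kB at many acute phase promoters. Fat cells also make several of these proteins, including lipocalin 2, serum amyloid A3 and orosomucoid.

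Promoter sequences are shown because STAT3, C/EBP and NF-kB act at the promoters of such genes. RefSeq (GRCm38.p6) gave 11 promoters for 8 of the 10 members. The 250 bases before the start are shown for 2 members that were higher in OSKM-CMPs, Lcn2 (chr2:32387740-32387989, minus strand) and Saa3 (chr7:46715677-46715926, minus strand), and for 2 that were lower, Il6 (chr5:30012864-30013113, plus strand) and Socs3 (chr11:117969367-117969616, minus strand). Capitals mark matches, on either strand, to a STAT motif (TTCNNNGAA), a C/EBP motif (TTNNGNAA) or an NF-kB motif (GGGA and TCC with NNN between them), which were chosen with the expression values known.
Lcn2: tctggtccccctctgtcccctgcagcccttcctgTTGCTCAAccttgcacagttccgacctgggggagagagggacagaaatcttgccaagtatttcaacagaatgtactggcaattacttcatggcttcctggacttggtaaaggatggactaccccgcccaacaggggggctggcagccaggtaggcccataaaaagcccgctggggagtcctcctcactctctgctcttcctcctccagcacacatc
Saa3: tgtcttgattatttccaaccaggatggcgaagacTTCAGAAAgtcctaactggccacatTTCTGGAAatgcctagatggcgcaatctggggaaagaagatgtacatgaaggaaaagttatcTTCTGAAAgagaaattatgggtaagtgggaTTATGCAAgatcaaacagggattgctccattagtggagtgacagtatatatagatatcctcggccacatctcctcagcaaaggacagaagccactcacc
Il6: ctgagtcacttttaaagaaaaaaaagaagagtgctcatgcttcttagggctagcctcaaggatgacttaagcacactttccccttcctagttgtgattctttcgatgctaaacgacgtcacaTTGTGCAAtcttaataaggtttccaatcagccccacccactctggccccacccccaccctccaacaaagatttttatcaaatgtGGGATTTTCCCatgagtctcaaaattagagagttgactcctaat
Socs3: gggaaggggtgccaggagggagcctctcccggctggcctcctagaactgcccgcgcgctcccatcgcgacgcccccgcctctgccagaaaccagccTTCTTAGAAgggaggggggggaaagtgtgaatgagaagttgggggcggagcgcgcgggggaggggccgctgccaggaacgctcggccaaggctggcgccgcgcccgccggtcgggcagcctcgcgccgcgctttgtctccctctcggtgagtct
The Saa3 stretch held 4 C/EBP matches, starting 216, 191, 129 and 99 bases before the start of the gene. Il6 held 1 C/EBP match at 128 bases and an NF-kB match that fits at 2 overlapping positions, 44 and 43 bases before the start. Socs3 held 1 STAT match at 154 bases, and Lcn2 held 1 C/EBP match at 216 bases. Among the promoters not shown, that of Il6st and 1 of those of Il1rn held no match. Those of Stat3 and Il1r1 and the other Il1rn promoters held C/EBP matches only. Of 32851 promoters of this length, 36.8% held at least 1 C/EBP match, 7.02% a STAT match and 3.86% an NF-kB match. The C/EBP letters alone are thus common. A match describes letters and not binding.

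The probes of the orosomucoid family also need to be seen, because Orm1, Orm2 and Orm3 are close relatives and their values are set side by side below. The array files give these 60-base probes, together with that of Saa3.
Orm1: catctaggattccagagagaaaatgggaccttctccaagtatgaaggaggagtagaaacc
Orm2: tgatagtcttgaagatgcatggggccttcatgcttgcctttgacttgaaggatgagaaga
Orm3: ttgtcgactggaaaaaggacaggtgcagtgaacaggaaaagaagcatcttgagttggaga
Saa3: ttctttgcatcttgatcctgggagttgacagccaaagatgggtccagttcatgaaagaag
The orosomucoid probes start at bases 320, 396 and 561 of their transcripts, at different places, so the letters alone do not show how alike the transcripts are. Whether a probe also binds the transcript of a relative was not tested.

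The 4 arrays were of like quality. Each array had between 31492 and 33209 probes well above background, no spot of a probe was saturated, and the 75th percentile of the processed signal, used to put the arrays on 1 scale, lay between 388.5 and 411.0 fluorescence units. All 10 genes of the CMP list, among them Ly6a (which encodes Sca-1), Thy1, Pdgfra and Col1a1, were well above background on every array. Their levels were not all kept: at day 8, 3 were at least 2-fold lower than the control and 1 higher (30% and 10%, beside 10.5% and 14.3% of all genes). Thy1 was 3.43-fold, Itgb1 2.55-fold and Eng 2.28-fold lower, and Ly6a was 6.47-fold higher. Hepatocytes are the usual source of acute phase proteins. Of 9 hepatocyte markers on the array, 5 (Alb, Ttr, Apoa1, Hnf4a and Foxa3) were not above background on any array, and the summed level of the 4 others stayed between 2.43 and 2.69 times the 75th percentile. Of these 4, 1 was higher by 1.58 on the log2 scale at day 8 (25%, beside 14.3% of all genes) and was below background in the control. Against the lowest signal above background it was under 2-fold.

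By day 8 the 4 acute phase proteins were higher in OSKM-CMPs than in control CMPs, and Il6, Il6st, Socs3, Stat3 and Il1r1 were lower. At day 4 there were 2 of the 9 measured members were that were at least 2-fold higher (Lcn2 and Saa3), where 11.1% of all 24538 measured genes were, and 4 were at least 2-fold lower (Il6, Il6st, Socs3 and Il1r1), against 8.68% of all genes. At day 6, 3 were higher, with Orm1 added (12.0% of all genes), and 5 were lower, with Stat3 added (10.8%). At day 8 all 9 had passed 2-fold, 4 of them higher (Lcn2, Saa3, Orm1 and Lbp, against 14.3% of all genes) and 5 lower (against 10.5%). Stat3 passed by the mean of its probes, while its brighter probe was 1.88-fold lower at day 8. With the brightest probe of each gene, 4 members were lower at day 8. The members were chosen with earlier results of these arrays known, so these shares describe the choice as well as the cells. The median log2 difference of the 9 from the control was -0.95, -1.02 and -1.08 on days 4, 6 and 8, where the median of all genes was 0.00, -0.04 and -0.01. These medians hide a split into both directions, and the members are better read one by one.

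**Figure D1:**
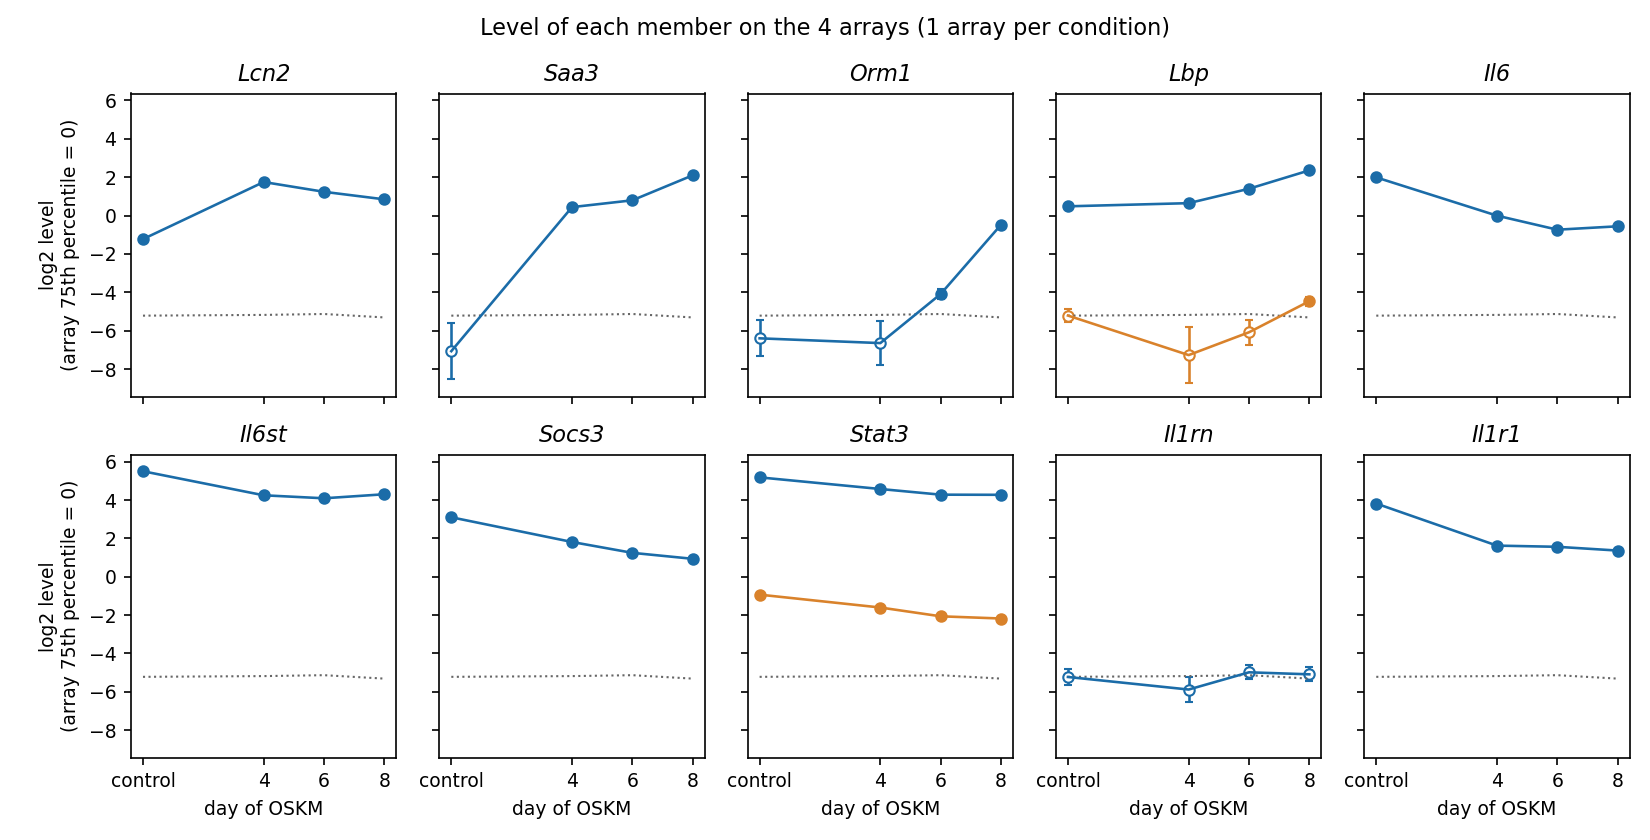
Log2 level of each probe of the 10 genes (y axis, relative to the 75th percentile of the array) on the control array and at days 4, 6 and 8 (x axis). Filled points were well above background, open points were not, error bars are 1 SD of the error model, the dotted line is the lowest signal well above background, and the second probe of Lbp and of Stat3 is in orange. Saa3 and Orm1 left the background at day 4 and day 6 respectively, while Il6, Il6st, Socs3, Stat3 and Il1r1 were highest in the control.

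Lcn2 encodes lipocalin 2, which withholds iron from bacteria by binding their siderophores. Its probe (mm9 chr2:32240199-32240258, minus strand) gave a processed signal of 166.4 in control CMPs and of 1306, 958.7 and 738.6 on days 4, 6 and 8. It was highest at the first time point after OSKM and lower at each later one. After scaling, Lcn2 was 7.87-fold higher than the control at day 4 (log2 difference 2.98 ± 0.21), 5.52-fold higher at day 6 and 4.21-fold higher at day 8 (2.07 ± 0.21). From day 4 to day 8 the log2 difference was -0.90 ± 0.20, that is, 1.87-fold lower and 4.43 times its error.

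Saa3 encodes serum amyloid A3, the member of its family that is made mainly outside the liver. The probe (chr7:53970389-53970448, minus strand) was not well above background in the control, with a signal of 2.90, and gave 527.1, 705.6 and 1761 on days 4, 6 and 8. All 3 OSKM arrays were far above the control, with the highest value at the last day. Against the lowest signal that counts as above background, Saa3 was at least 50.5-fold higher at day 4, at least 64.6-fold at day 6 and at least 159-fold at day 8. Days 4 and 6 differed by less than 2 errors (0.36 ± 0.20), whereas day 8 was 2.47-fold above day 6 (1.30 ± 0.20). The size rests on how the background is handled: normexp correction, which adds an offset of 50 to every signal, and quantile normalization gave a log2 difference of 4.60 at day 8, a lower fold than the bound above.

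Orm1 encodes orosomucoid 1, an acidic glycoprotein that carries lipids and drugs in plasma. Its probe (chr4:63006483-63007090, plus strand, a span of 608 bases that a 60-base probe can cover only by crossing an intron) gave 4.62 in the control and 3.88 at day 4, neither well above background, then 23.9 at day 6 and 295.3 at day 8. Its first array above background was thus day 6, where that of Saa3 was day 4. Orm1 was at least 2.19-fold higher than the control at day 6 and at least 26.7-fold higher at day 8, and 12.2-fold higher at day 8 than at day 6 (3.61 ± 0.28). After normexp and quantile normalization the log2 differences were smaller, 0.36 at day 6, under 2-fold, and 2.24 at day 8.

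Lbp encodes the lipopolysaccharide-binding protein, which hands bacterial lipopolysaccharide to CD14. Its brighter probe (chr2:158154142-158157684, plus strand, again across an intron) gave 544.0 in the control and 608.3, 1072 and 2106 on days 4, 6 and 8. The control and day 4 differed by less than 1 error (0.16 ± 0.20), and each later day was higher, by 0.92 ± 0.20 at day 6 and by 1.88 ± 0.20, or 3.67-fold, at day 8. The other Lbp probe (chr2:158136176-158136235, plus strand) was well above background at day 8 alone, with signals of 10.5, 2.51, 5.99 and 18.6 in the same order, and bounded the difference at day 8 to at least 1.68-fold. Because of that dim probe the mean of both stood 0.95 below the control at day 4, a value that the brighter probe does not share. At day 8 the mean stood 1.31 above the control, and 0.96 above it after normexp with quantile normalization, short of 2-fold.

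Il6 encodes the cytokine at the head of the pathway. Its probe (chr5:30346367-30346426, plus strand, 2 spots per array) gave a mean signal of 1548 in the control and 387.4, 243.9 and 279.0 on days 4, 6 and 8. Every OSKM array was below the control. Il6 was 3.98-fold lower at day 4 (-1.99 ± 0.14), 6.62-fold lower at day 6 (-2.73 ± 0.14) and 5.86-fold lower at day 8 (-2.55 ± 0.14). Days 6 and 8 differed by less than 2 errors (0.18 ± 0.15). The SD between the 2 spots lay between 0.04 and 0.17 on the log2 scale.

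Il6st encodes gp130. Its probe (chr13:113296586-113296645, plus strand) gave 17630 in the control and 7375, 6923 and 8100 on days 4, 6 and 8. The control stood above the 3 OSKM arrays, of which no pair differed by more than 1.03 errors. Il6st was 2.38-fold lower than the control at day 4 (-1.25 ± 0.20), 2.66-fold lower at day 6 (-1.41 ± 0.20) and 2.30-fold lower at day 8 (-1.20 ± 0.20). With quantile normalization, alone or after normexp background correction, the day 8 difference was -0.98 and missed 2-fold.

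Socs3 encodes the feedback inhibitor of gp130. Its probe (chr11:117827480-117827539, minus strand) gave 3342 in the control and 1365, 964.2 and 786.2 on days 4, 6 and 8, a lower value at each later day. The difference from the control was -1.29 ± 0.20 at day 4, -1.85 ± 0.20 at day 6 and -2.17 ± 0.20 at day 8, which is 4.49-fold lower. Days 4 and 8 differed by 4.30 errors, but days 6 and 8 by 1.52.

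Stat3 encodes the transcription factor that gp130 activates. The brighter of its 2 probes (chr11:100749598-100749657, minus strand, 10 spots per array) gave 14120 in the control and 9255, 7888 and 7940 on days 4, 6 and 8. It was 1.52-, 1.87- and 1.88-fold lower than the control, with a log2 difference of -0.91 ± 0.06 at day 8. The second probe (chr11:100759946-100760005, minus strand) gave 204.1, 127.9, 97.4 and 90.9 and was 2.37-fold lower at day 8 (-1.24 ± 0.21). After scaling, the probes had the same order of days and differed in size, so that Stat3 passed 2-fold at days 6 and 8 by their mean (-1.02 and -1.08) but not by the brighter probe. After normexp with quantile normalization the mean was -0.79 at day 6 and -0.83 at day 8, and with quantile normalization alone it was -0.98 at day 6.

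Il1r1 encodes the receptor that carries the IL-1 signal. Its probe (chr1:40372667-40372726, plus strand) gave 5484 in the control and 1197, 1199 and 1059 on days 4, 6 and 8. The level was 4.57-fold lower at day 4 (-2.19 ± 0.20) and 5.47-fold lower at day 8 (-2.45 ± 0.20), and no pair of the OSKM days differed by more than 1.26 errors. Il1rn, which encodes the secreted antagonist of that receptor, gave 10.4, 6.60, 12.9 and 12.1 on its probe (chr2:24205094-24205153, plus strand), not well above background on any array, so that no fold is given.

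**Figure D2:**
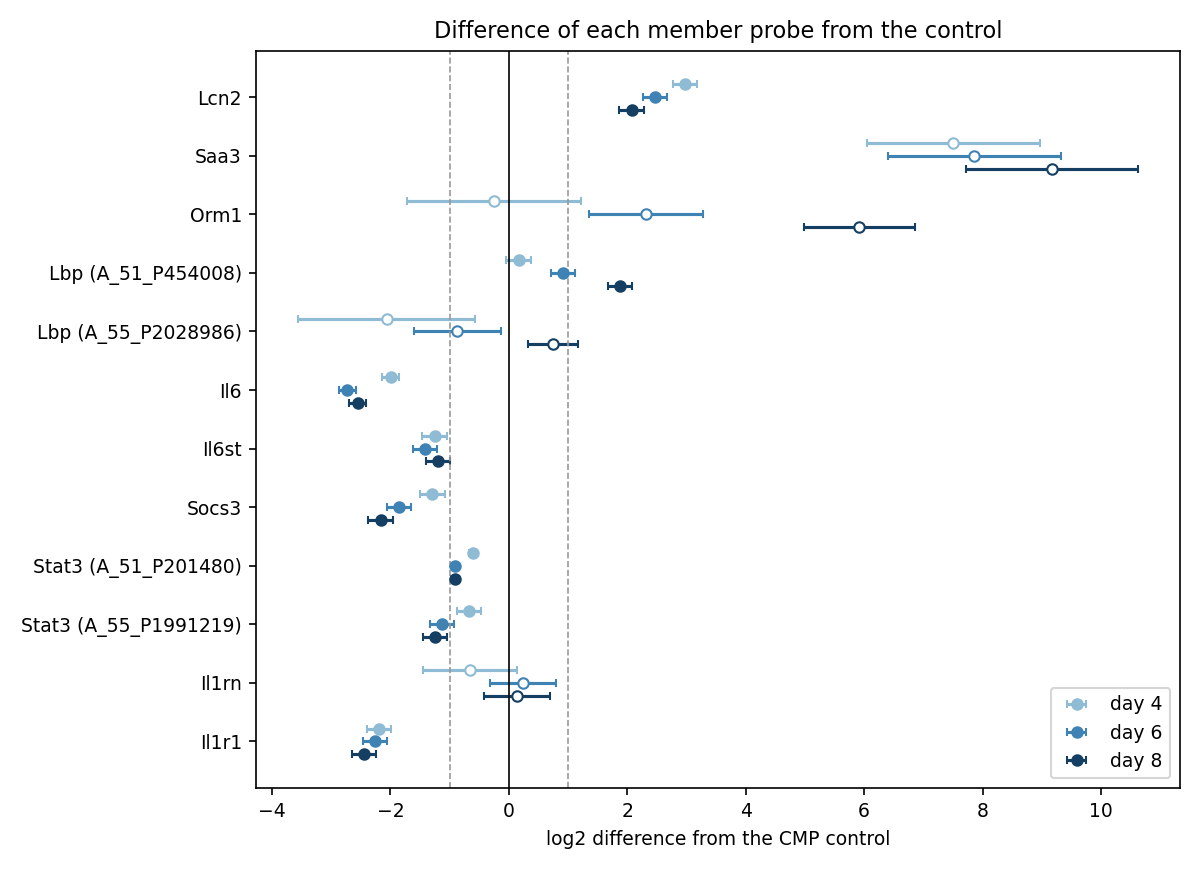
Log2 difference of each of the 12 probes (y axis) from the control at days 4, 6 and 8 (x axis), with error bars of 1 SD from the error model and dashed lines at 2-fold. Open points have at least 1 of the 2 arrays below background, so their place on the axis is not a measured size. Lcn2, Saa3, Orm1 and the brighter Lbp probe lie to the right at day 8 and Il6, Il6st, Socs3, Stat3 and Il1r1 to the left on every day.

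The members differed in when they moved away from the control. Il6st and Il1r1 had 104.5% and 89.5% of their day 8 difference by day 4, Il6 had 78.2%, Socs3 had 59.5% and the brighter Stat3 probe 66.7%. Lcn2 was past its day 8 difference at day 4 (143.6%), whereas the brighter Lbp probe had 8.8% of its own. Between OSKM days few members differed by 2-fold. From day 4 to day 6 this was 1 of 9, Orm1, which was higher (2.75% of all genes were higher and 2.97% lower), and from day 6 to day 8 it was 3, Saa3, Orm1 and the mean of the Lbp probes, all higher (3.28% of all genes were higher and 1.22% lower). The Lbp call rests on the dim probe, which was below background at day 6, and the brighter one was 1.94-fold higher, short of 2-fold. None was 2-fold lower between these days.

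Genes of 7 pathway lists, with 140 genes in all and 123 measured, placed the members among their partners. At day 8, 29 of the 123 (23.6%) were at least 2-fold higher than the control, beside 14.3% of all genes, and 30 (24.4%) were lower, beside 10.5%, with a median of -0.15. The lists differed from each other in their balance. More acute phase proteins were higher than lower, more response genes of STAT3 and C/EBP were lower than higher, and the receptors and kinases between them lay on both sides.

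Of 23 measured acute phase proteins, 8 were higher and 5 lower at day 4 (34.8% and 21.7%, beside 11.1% and 8.68% of all genes), and 10 were higher and 2 lower at day 6 (43.5% and 8.7%, beside 12.0% and 10.8%), so that the lower share at day 6 was under that of all genes. At day 8 there were 11 higher and 5 lower (47.8% and 21.7%, beside 14.3% and 10.5%), and the median log2 difference was 0.73. With the 4 genes that were below background on 1 of the 2 arrays set to their bound, 10 were higher and 4 lower at day 8 and the median was the same. Hp, encoding the haemoglobin scavenger haptoglobin, was higher by 2.49, 5.87 and 8.31 on the log2 scale at days 4, 6 and 8, the last of these 317-fold. C3, the central complement component, was higher by 2.68, 3.93 and 4.11, with its 2 probes at 4.13 and 4.08 at day 8. Serpina3n, a secreted protease inhibitor, stood at -2.80, -4.05 and -4.33, that is, 20.2-fold lower at day 8. The relatives of Orm1 were picked out after their values were seen. Orm2, like Orm1, was below background in the control and at day 4, above it from day 6, and at least 49.7-fold higher at day 8, whereas Orm3 was above background at day 8 alone, at least 6.75-fold higher. Saa1, a liver-type serum amyloid A also picked out afterwards, differed by 0.69 at day 8, under 2-fold, beside the large difference of Saa3.

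The 15 ligands and receptors of the IL-6 family were all measured, and at day 8 there were 4 higher and 5 lower (26.7% and 33.3%, beside 14.3% and 10.5% of all genes), with a median of -0.03. With bounds, 3 were higher. Osmr, the oncostatin M receptor that pairs with gp130, was lower by a log2 difference of -1.38, -1.62 and -1.65 at the 3 days. Clcf1, which encodes a cytokine of the family, stood at -1.59, -1.46 and -1.61. Il6ra, the receptor specific to IL-6, was picked out afterwards as the partner of Il6st and differed by 0.70 at day 8, under 2-fold and on the higher side.

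Among 24 measured genes of JAK-STAT signalling and its inhibitors, 4 were higher and 2 lower at day 8, with a median of -0.05. These shares, 16.7% and 8.33%, lay near those of all genes, 14.3% and 10.5%. Stat2, a mediator of the interferon response, was higher by 2.05, 2.08 and 2.20. Ptpn6, a phosphatase of blood cell signalling, stood at -0.20, -1.42 and -1.79. Socs1 and Socs2, set here beside Socs3 after their values were seen, differed from the control by 1.58 and -1.02 at day 8, so that the 3 inhibitors did not share a direction. The kinase Jak1, also picked out afterwards, stood at -0.93.

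Of 22 genes known to respond to STAT3 or C/EBP, 1 was higher and 12 were lower at day 8 (4.55% and 54.5%, beside 14.3% and 10.5% of all genes), with a median of -1.10. At days 4 and 6 there were 10 and 9 lower (45.5% and 40.9%, beside 8.68% and 10.8%). Fos, an immediate early gene, stood at -4.80, -2.61 and -3.83. Myc stood at -2.65, -2.90 and -3.08, and as c-Myc is also 1 of the 4 factors supplied, whether its probe reads the vector transcript was not tested. Cebpd, encoding C/EBP delta, stood at -1.30, -2.61 and -2.94. The single higher gene was Steap4, a metal reductase of fat cells, at least 16.1-, 5.55- and 6.32-fold higher at days 4, 6 and 8. It was highest at day 4 and 2.55-fold lower at day 8 than at day 4. Several genes of this list serve in the cell cycle or in early responses to serum, so it is not a measure of STAT3 alone.

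Of 20 measured genes of the IL-1 family, 5 were higher and 5 lower at day 8 (3 lower with bounds), with a median of -0.11. Each count of 5 is 25% of the list, beside 14.3% of all genes higher and 10.5% lower. The cytokine Il33 was higher by 2.57, Il18 by 2.30 and Il18bp, which encodes the neutraliser of IL-18, by 2.51. Neither Il1a nor Il1b, the activating ligands of Il1r1, was well above background on any array. The decoy receptor Il1r2 was at least 10.0-fold lower at day 8 and the coreceptor Il1rap stood at -1.12, beside -2.45 for Il1r1; these 4 genes were picked out as its partners.

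Of 14 NF-kB factors and inhibitors, 3 were higher and 1 lower at day 8, with a median of 0.07. These shares, 21.4% and 7.14%, rest on few genes beside 14.3% and 10.5% of all genes. The higher ones were the inhibitors Nfkbie (1.60), Tnfaip3 (1.51) and Nfkbia (1.20), the last picked out to complete the count, and the lower was Nfkbiz (-1.33), a nuclear cofactor that supports Il6 transcription. Of 5 measured genes in the list of lipopolysaccharide sensing, the pathway of Lbp, only Tlr2 passed 2-fold (20% higher at day 8, beside 14.3% of all genes). Tlr2 was higher by 3.04, 2.87 and 3.04 at the 3 days, and the median of the list at day 8 was -0.26. It is not part of the lipopolysaccharide receptor complex given next. The receptor complex that LBP serves was picked out afterwards: Tlr4 and Ly96 stood at -0.43 and -0.45 at day 8, and Cd14 at 1.06, 0.64 and 0.40 on days 4, 6 and 8.

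**Figure D3:**
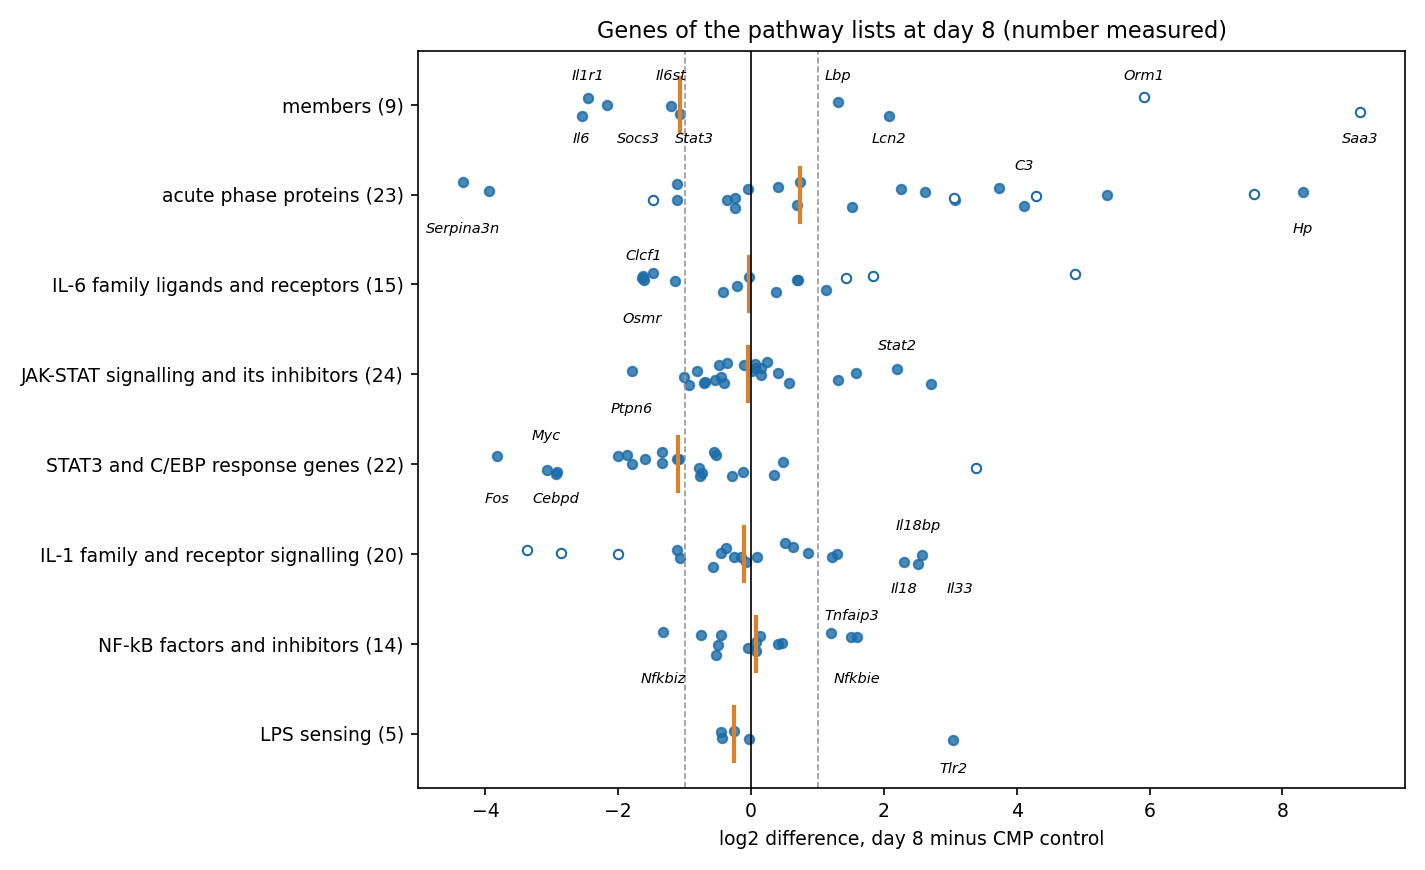
Log2 difference between day 8 and the control (x axis) for the measured genes of the members and of 7 pathway lists (y axis, number measured in brackets). Each point is a gene, open where it was below background on 1 of the 2 arrays, orange bars are medians, dashed lines mark 2-fold, names stand near genes given in the text and points are spread vertically for clarity. The median is 0.73 for acute phase proteins and -1.10 for STAT3 and C/EBP response genes.

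Some markers of other cell types also differed from the control, and their part in these results was not tested. In RNA from whole cultures, fewer cells of a type and less RNA per cell cannot be told apart. Beside the counts below, 14.3% of all genes were at least 2-fold higher at day 8 and 10.5% lower, and each marker list holds few genes. All 10 adipocyte markers were at least 2-fold higher at day 8 by fitted value (9 of 10 with bounds), and their summed level was 5.11 times the 75th percentile in the control and 47.1, 164 and 357 on days 4, 6 and 8. Adipoq, which encodes adiponectin, and Cfd, which encodes adipsin, were below background in the control and at least 2165-fold and at least 3572-fold higher at day 8. Saa3, Orm1 and the brighter Lbp probe, like this sum, were highest at day 8, whereas Lcn2 was highest at day 4. Of 16 macrophage and neutrophil markers on the array, 13 were measured, with 4 higher and 3 lower at day 8 by fitted value and a summed level between 62.9 and 88.5, most of it from the Csf3r probe (a log2 level of 5.81 in the control and 6.25 at day 8). Within that list the neutrophil proteins S100a8 and S100a9 were below background in the control and at least 31.4-fold and at least 14.2-fold higher at day 8. Cd68 was higher by 1.56 at day 8, with not all of its probes above background in the control. Csf1r and Itgam were above background on every array and stood at -0.73 and -0.10 at day 8, under 2-fold. Lyz2 stood at -2.58, Ptprc (CD45) lay close to the background on every array, and Aif1, Laptm5 and Cxcr2 were not above it on any. Of 7 endothelial markers, 4 were lower at day 8, among them Cdh5 (VE-cadherin), at least 11.9-fold, and their summed level was 1.97 in the control and between 1.13 and 1.24 afterwards. Of 6 measured cardiomyocyte markers, 3 were higher and 1 was lower at day 8 by fitted value (2 and 1 with bounds), with a median of 0.85. Their summed level was 12.0 in the control and between 4.26 and 6.77 in OSKM-CMPs, most of it from Tnnt2, the lower marker, with a log2 level of 3.56 in the control and 1.96 at day 8.

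The genes whose time course lay nearest to a member were sought among those well above background on all 4 arrays. There were 18794 such genes, and those that belonged to the lists were left out of the search. Likeness was the distance between the log2 differences from the control at days 4, 6 and 8, over 4 arrays. Nearest to Lcn2 were Emilin2 (0.08), Angptl4 (0.11) and Gpc1 (0.17), to Il6 Heg1 (0.07), Riiad1 (0.13) and Spns3 (0.16), and to Socs3 Klra22 (0.07), Fbxo5 (0.10) and A130022J15Rik (0.10). Angptl4, for instance, was higher by 2.87, 2.46 and 2.07, against 2.98, 2.47 and 2.07 for Lcn2. With 3 differences per gene and this many genes, close matches are common, and they are given as a description. Saa3 could not be compared in this way because of its control value.

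**Figure D4:**
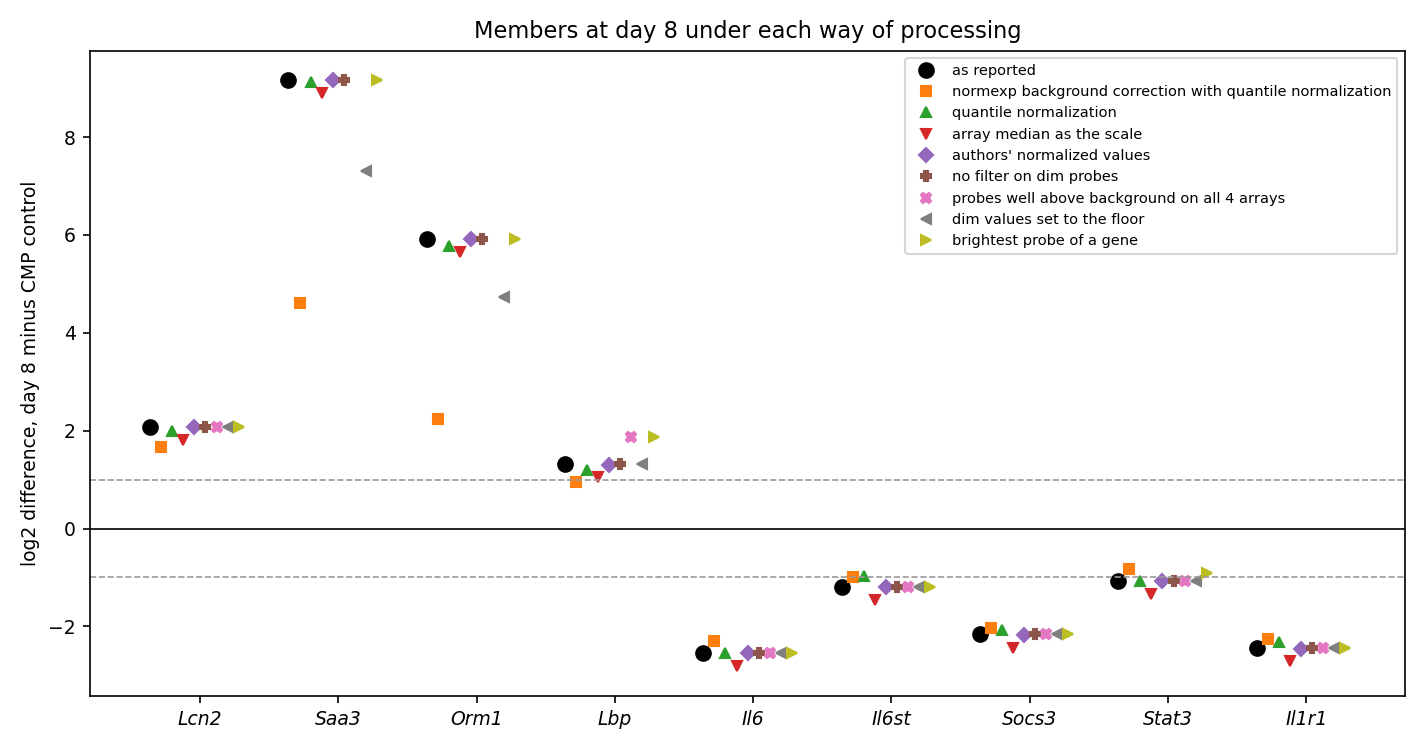
Log2 difference between day 8 and the control (y axis) for the 9 measured members (x axis) as reported and under 8 other ways of processing the arrays, with dashed lines at 2-fold. Each symbol is 1 way of processing, and values below background take part for Saa3, Orm1 and Lbp. No member crosses 0, Saa3 runs from 4.60 to 9.17 and Orm1 from 2.24 to 5.92, while Il6 stays between -2.82 and -2.29.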

How the data were processed

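Labelled RNA was hybridised by the authors to SurePrint G3 Mouse GE 8x60K arrays, whose file headers all carry the same scan date entry. The authors deposited, for each spot, the processed Cy3 signal, an intensity after background subtraction, with its error and flags (Agilent Feature Extraction 10.7.3.1 by the file headers, 9.5.3 by the submitters' processing notes). The deposited normalized table, made in GeneSpring, holds log2 values. Among probes with 1 spot it differed from the processed signals by 1 constant per array in 100% of them (within 0.01). Its column medians lay between -4.22 and -3.96. No column belonged to a sample outside the series (0 columns).

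Control spots (3671) and outlier spots (87 to 106 per array) were left out, spots of 1 probe were averaged as log2 processed signals, and each array had its 75th percentile subtracted. A gene was the mean of its probes that were well above background on at least 1 array. A value below background gave a bound, the bright level over the lowest signal well above background. A call was a log2 difference of 1 or more. With 1 array per condition no test was made, and the number of arrays limits the precision. The calculation was tested on simulated data with known changes in probes well above background on all arrays. Changes in probes below background, as for Saa3, Orm1 and the dim Lbp probe, were not simulated. Members and lists were chosen with earlier results of these data known. All members were named, and from each list up to 3 genes with the largest difference at day 8, past 2-fold with every probe above background on both arrays, apart from items not reported here. Others are marked as picked out afterwards, and markers were named from their lists. Positions of probes (mm9) come from the array files, and 11 of 12 probe accessions gave the same symbol in RefSeq. Alternatives were normexp (offset 50) with quantile normalization, quantile normalization, the median as scale, the authors' values, other filters, a floor, the brightest probe and thresholds of 1.5- and 3-fold. Python 3.11.15, numpy 2.4.6, pandas 2.3.3, matplotlib 3.10.9, R 4.3.3 and limma 3.58.1 were used.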

Additional observations from a re-analysis of the deposited data

How the results depend on the processing

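No paired analysis was possible because single arrays stand for the 4 conditions, and leaving out a replicate was likewise out of reach. Of 210 recomputed differences of single members, 168 moved by no more than their error, 39 moved by more without turning direction, and 3 turned direction from a value beyond its error. The 3 were Lbp at day 4, which stood at -0.95 as reported and at 0.16 with probes above background on all 4 arrays, 0.10 with dim values at the floor and 0.16 with the brightest probe. Among values within their error, Orm1 at day 4 went from -0.25 to 0.04 with the floor and Lbp at day 6 from 0.02 to -0.11 with the array median. Requiring signal on all 4 arrays left 7 members, with 1, 1 and 2 higher on days 4, 6 and 8 and medians of -1.25 and -1.41 on days 4 and 6. Over all 20623 genes left by that filter, 1489, 1747 and 2037 were higher on the 3 days. At 3-fold, 2, 3 and 3 members were lower on days 4, 6 and 8, and 17 pathway genes were lower at day 8. Over all 24538 genes, 1031, 1313 and 1343 were lower at 3-fold on the 3 days. Normexp with quantile normalization left 3 members and 19 pathway genes lower at day 8, with member medians of -0.48, -0.79 and -0.83. The median was -0.64 (floor) and -0.61 (brightest probe) at day 4, -0.50 at day 6 and -0.47 at day 8 with no filter, and -1.34 at day 8 with the array median as scale. That scale moved the median of all genes to -0.14, -0.17 and -0.28 at the 3 days. Over all genes at day 8, 3520 were higher and 2581 lower (57.7% of calls higher). These were 1247 and 1298 under normexp with quantile normalization, 2037 and 1856 with signal on all 4 arrays, 5724 and 4810 at 1.5-fold, 1973 and 1343 at 3-fold, and 2668 and 3810 (41.2% higher) with the array median. The brightest Stat3 probe stayed under 2-fold on every day. Members near the background (Saa3, Orm1 and the dim Lbp probe) are limited by signal, and their differences are bounds.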
